A study of Homo sapiens with 8 samples.

Results

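HL-60 cells, a line from a human promyelocytic leukaemia, were profiled by 3′ RNA sequencing 72 h after the start of treatment. The genes described here are 10 members of the S100 family of calcium-binding proteins. They are S100A4, S100A6, S100A8, S100A9, S100A10, S100A11, S100A12, S100A13, S100P and S100Z, taken by symbol from the 60240 genes of the deposited table. The symbols were picked from the family with the treatment values of these same libraries in view. The members' changes are therefore given as a description, and the number of members that changed is evidence of nothing about the family. To enter the test, a gene's 8 values had to average 10 or more, which held for 9 of the 10 and not for S100Z. Of 11 other S100 genes in the table, it held for S100B alone, with a mean of 47.4.

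The cells, labelled wild type, fell into 4 groups of 2 libraries. The combination group received decitabine and RG3039, the second group decitabine alone, the third RG3039 alone and the fourth the solvent DMSO. Decitabine, a deoxycytidine analogue that traps DNA methyltransferases and lowers DNA methylation, was added at 100 nM once daily, first on day 0 and last on day 2. RG3039, an inhibitor of the mRNA cap scavenger enzyme DcpS, was added once, on day 0, at 2 µM. The cultures were duplicate wells of this line, so the p-values measure the spread between wells. The estimated depth was 20700000 to 40900000 reads per library. Counting error is small for most members. It is larger for S100Z, and for S100A10 and S100A13, which were at about 56 and 53 reads in DMSO replicate 2. All 6 promyelocyte markers (MPO, ELANE, AZU1, PRTN3, CTSG and CD33) were detected in each library. Their summed values were 84211 and 94241 in the combination, 155613 and 195063 with decitabine alone, 101820 and 116936 with RG3039 alone and 158135 and 194716 in DMSO. KRT19, COL3A1, CDH5, MS4A1 and HBB, markers of epithelial, stromal, endothelial, B and erythroid cells, were listed at 0 in every library. PECAM1, shared by endothelial and myeloid cells, made up the endothelial sum with CDH5 and VWF, at 3085 and 3462 in the combination, 565 and 821 with decitabine alone, 1633 and 1875 with RG3039 alone and 582 and 608 in DMSO. The summed epithelial markers were at 535 and 770, 405 and 513, 343 and 519, and 249 and 401 in the same order. The summed B cell markers, MS4A1 included, were at 146 and 161.5 in the combination, 101 and 121 with decitabine alone, 29.6 and 93.1 with RG3039 alone, and 27.2 and 37.8 in DMSO. The summed T cell markers CD3E, CD3D and CD2 were at 104 to 210 in the combination, 26.9 to 61.6 with decitabine alone, 5.37 to 13.5 with RG3039 alone, and 3.01 to 9.06 in DMSO. The part of these genes in the S100 values was not tested.

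S100 proteins are small and mostly form dimers. Each subunit carries a pair of EF-hand loops, and in most members binding of calcium exposes a surface that holds a target protein. In neutrophils and monocytes S100A8 and S100A9 pair as calprotectin, an abundant cytosolic complex that withholds zinc and manganese from microbes and signals through TLR4 and RAGE once released. The genes for these subunits are known as markers of maturing myeloid cells.

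In the annotation (GENCODE 29 on GRCh38, the build of the files) 8 members lie in the S100A gene cluster of chromosome 1. S100A10 (151982915 to 151994390) and S100A11 (152032506 to 152047907) stand at its near end. S100A9 (153357854 to 153361027), S100A12 (153373706 to 153375649), S100A8 (153390032 to 153391188), S100A6 (153534599 to 153536244), S100A4 (153543613 to 153550136) and S100A13 (153618787 to 153631360) follow further along. S100A9 is on the plus strand and the other 7 on the minus strand. S100P lies on chromosome 4 (6693069 to 6697170) and S100Z on chromosome 5 (76850001 to 76921650). The S100A4 span also holds S100A3 on the same strand, and S100A13 overlaps S100A1 on the opposite strand. Whether reads were counted by strand is not known from the labels. S100A3 and S100A1 had mean values of 3.003 and 2.835, against 8061 for S100A4 and 170 for S100A13. S100A11 overlaps the antisense gene AL450992.1, which had a mean of 7.40. The pseudogenes S100A11P1 and S100A11P2 were listed at 0 in all libraries.

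The promoters of these genes were read from RefSeq (GRCh38.p14), where all 10 members were found, some with several start sites. In the 250 bases before the start, the letters TATAAA on either strand were present in 7 of 10 members. They were present for 13.05% of 27305 genes with a promoter in the table, and in 10.7% of 35093 promoters. In 5 members the match began 28 to 31 bases before a start site. For S100A8 and S100A13 this held for only some of their start sites. The share of all genes with a match at that distance was not computed. The stretches around these matches are shown because the same box stands at nearly the same distance in genes on chromosomes 1 and 4. The other members with a match, S100A12 and S100Z, had it 8 and 11 bases before the start, and S100A6, S100A10 and S100A11 had none. The highest values were in the combination in tested members with and without a match. Only the exact letters were searched, so the near match TATAAG in S100A6 was not counted. The part of the match in the values was not tested. Each stretch shown is 30 bases long, 5′ to 3′ on the gene's own strand, with the match in capitals:
S100A4 (chr1:153545818-153545847, minus): ctggctggggTATAAAtaggtcagacctct
S100A8 (chr1:153391083-153391112, minus): gcctaaccgcTATAAAaaggagctgcctct
S100A9 (chr1:153357815-153357844, plus): aggagctgccTATAAAtgccgagcctgcac
S100A13 (chr1:153627515-153627544, minus): ccccgctgctTATAAAcctcagccctgagg
S100P (chr4:6693840-6693869, plus): gaggctgcctTATAAAgcaccaagaggctg

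A motif of the C/EBP family, whose members drive granulocyte genes, was searched as TTGCNNAA on both strands. It was found in S100A11, 33 bases before the start, and in S100A12, 94 bases before it. It was found for 11.03% of genes and in 9.05% of promoters. The PU.1 motif GAGGAAGT was found in 0 of 10 members and for 2.65% of genes (2.17% of promoters). No 2 matches to these motifs overlapped. The upstream sequences of S100A9 and S100A12 are shown because these neighbouring myeloid genes stood at opposite ends of the difference between the single drugs. The S100A9 stretch is complete (250 bases), and that of S100A12 (222 bases) stops at the exon annotated in GENCODE 29, upstream of the RefSeq start at 153375621 from which its motif position is counted. Capitals mark the TATAAA match in S100A9 and the C/EBP match in S100A12:
S100A9 (chr1:153357604-153357853, plus): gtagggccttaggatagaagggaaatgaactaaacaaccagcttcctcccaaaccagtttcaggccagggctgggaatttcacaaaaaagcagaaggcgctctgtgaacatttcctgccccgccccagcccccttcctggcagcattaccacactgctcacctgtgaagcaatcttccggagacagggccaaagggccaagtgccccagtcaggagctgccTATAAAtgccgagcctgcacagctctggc
S100A12 (chr1:153375650-153375871, minus): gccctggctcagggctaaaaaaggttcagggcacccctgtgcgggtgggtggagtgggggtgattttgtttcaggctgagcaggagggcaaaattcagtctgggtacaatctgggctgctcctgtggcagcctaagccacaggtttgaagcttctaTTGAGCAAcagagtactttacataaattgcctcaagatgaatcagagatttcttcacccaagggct

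CpG dinucleotides, the sites that DNA methyltransferases act on, varied widely between these windows. S100A12 held 1, each of the 3 S100A8 windows 2, and S100A9, S100P and S100Z 4 each. S100A4 held 7, S100A13 between 8 and 15 by start site, and S100A11 15. S100A6 and S100A10 held 24 each, and had no match to TATAAA. The median over all promoters was 11. Methylation was not measured.

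Values below are the deposited normalised read counts, in which a transcript is counted by tags near its 3′ end. A change is the log2 fold change on log2(value + 1), given with its standard error from the limma fit, and a gene is called at an adjusted p under 0.05 over the 17534 genes tested. Against DMSO, 8 of the 9 tested members rose in the combination and none fell, where 11.4% of all tested genes were called higher and 12.7% lower. With RG3039 alone 4 rose and none fell (4.53% and 3.59% of all genes), and with decitabine alone 3 rose and none fell (1.74% and 0.405%). The member medians were 2.09, 0.74 and 0.65 on the log2 scale for the combination, RG3039 and decitabine, beside 0.0437, -0.00251 and 0.0112 for all tested genes. These comparisons share the DMSO libraries. In bulk libraries, more cells of a type and more RNA per cell cannot be told apart. The combination libraries stood above both DMSO libraries in all 9 tested members, an arrangement found in 32.2% of genes. With decitabine this held for 8 (23.7% of genes) and with RG3039 for 6 (25.8%).

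**Figure D1:**
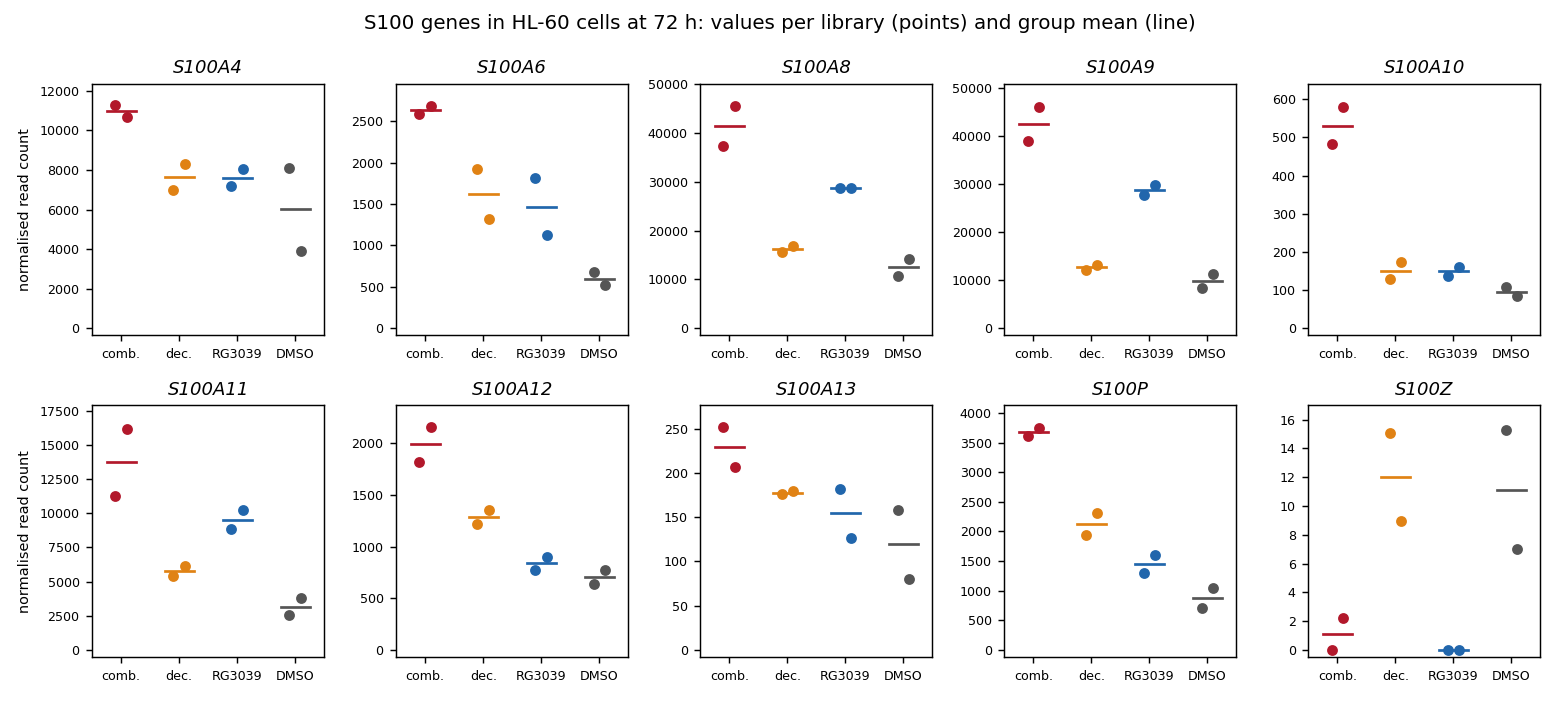
Normalised read counts of the 10 S100 genes in each of the 8 libraries (points, linear axes from 0) with the mean of each group (line), in the order combination, decitabine, RG3039 and DMSO. In the 9 tested genes the combination libraries were the highest; S100Z was near 0 in the combination and with RG3039.

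S100A8, the smaller calprotectin subunit, had values of 37249 and 45555 in the combination, 15717 and 16878 with decitabine alone, 28822 and 28709 with RG3039 alone, and 10687 and 14266 in DMSO. The groups did not overlap, and DMSO was the lowest. S100A8 rose with RG3039 (1.22 ± 0.16, adjusted p = 0.00250) and in the combination (1.74 ± 0.16, adjusted p = 0.000165). With decitabine the difference was 0.40 ± 0.16 (adjusted p = 0.244). In order of level, only decitabine and RG3039 differed as neighbours (-0.82 ± 0.16 for decitabine minus RG3039, adjusted p = 0.0231). The combination was above RG3039 by 0.52 ± 0.16 without passing (adjusted p = 0.138).

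S100A9, the larger calprotectin subunit, had 38981 and 46194 in the combination, 12215 and 13233 with decitabine alone, 27782 and 29737 with RG3039 alone, and 8456 and 11215 in DMSO. Its groups were in the same order as those of S100A8 and did not overlap. It rose with RG3039 (1.56 ± 0.16, adjusted p = 0.000857) and in the combination (2.12 ± 0.16, adjusted p = 6.25e-05), a 4.33-fold ratio of means. With decitabine it differed by 0.38 ± 0.16 (adjusted p = 0.255). It was lower with decitabine than with RG3039 by -1.18 ± 0.16 (adjusted p = 0.00419). The calls of S100A8 and S100A9 against DMSO were kept in all 19 alternatives. The call of S100A8 between the single drugs was lost without decitabine replicate 1 (adjusted p = 0.124), decitabine replicate 2 (0.0895), RG3039 replicate 1 (0.134) or RG3039 replicate 2 (0.118).

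The S100A9 value divided by the S100A8 value was 1.046 and 1.014 in the combination, 0.777 and 0.784 with decitabine alone, 0.964 and 1.036 with RG3039 alone, and 0.791 and 0.786 in DMSO. The 4 libraries with RG3039 lay above the 4 without it. The quotient of tags is not a ratio of molecules, and it is given only for its differences between libraries. S100A8 and S100A9 together took 0.273% and 0.319% of all normalised reads in the combination, 0.100% and 0.101% with decitabine alone, 0.192% and 0.198% with RG3039 alone, and 0.0631% and 0.0789% in DMSO.

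**Figure D2:**
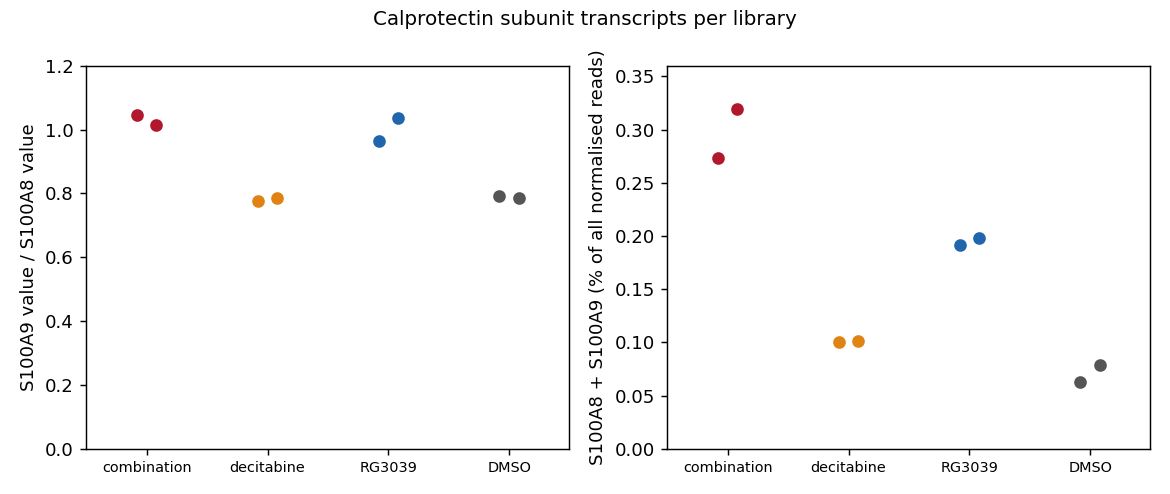
Left, the S100A9 value divided by the S100A8 value in each library; right, the sum of both as a percentage of all normalised reads; points are libraries in the order combination, decitabine, RG3039 and DMSO, on axes from 0. The quotient is at 0.964 to 1.046 in libraries with RG3039 and at 0.777 to 0.791 in those without.

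S100A12, the third calgranulin, which is secreted by neutrophils and binds RAGE, followed another order. Its values were 1819 and 2155 in the combination, 1216 and 1349 with decitabine alone, 771 and 902 with RG3039 alone, and 634 and 776 in DMSO. The RG3039 and DMSO libraries overlapped, and decitabine lay between them and the combination. S100A12 rose with decitabine (0.87 ± 0.18, adjusted p = 0.0453) and in the combination (1.496 ± 0.18, adjusted p = 0.000543), and with RG3039 it differed by 0.25 ± 0.18 (adjusted p = 0.463). It was higher in the combination than with RG3039 (1.25 ± 0.18, adjusted p = 0.0136) and, without passing, than with decitabine (0.63 ± 0.18, adjusted p = 0.0693). The decitabine call was lost without each of the 8 libraries in turn, at adjusted p between 0.0685 and 0.187.

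S100P, an S100 protein first described in placenta that is also present in granulocytes, behaved like S100A12 in its order. It had 3611 and 3744 in the combination, 1943 and 2307 with decitabine alone, 1300 and 1602 with RG3039 alone, and 710 and 1050 in DMSO, with no overlap between groups. It rose with decitabine (1.29 ± 0.21, adjusted p = 0.0157) and in the combination (2.09 ± 0.21, adjusted p = 0.000197). With RG3039 it stood 0.74 ± 0.21 above DMSO (adjusted p = 0.0612). Of the left-out libraries, this difference passed only without DMSO replicate 2, where it was 1.02. The combination exceeded RG3039 (1.35 ± 0.21, adjusted p = 0.0146) and was above decitabine by 0.80 ± 0.21 (adjusted p = 0.0502). The decitabine call was lost without decitabine replicate 1 (adjusted p = 0.0742) or replicate 2 (0.122). The difference from decitabine in the combination passed without DMSO replicate 1 or replicate 2, and without no other library.

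Between the single drugs, 2 of 9 members were called, both lower with decitabine than with RG3039 (1.92% of all genes were called lower and 2.67% higher). The libraries of the single drugs did not overlap in 5 members, of which 3 were lower with decitabine (23.8% of all genes) and 2 higher (24.5%). The members called were S100A8 and S100A9. S100A12 and S100P pointed the other way, at 0.62 ± 0.18 and 0.55 ± 0.21 for decitabine minus RG3039, and did not pass (adjusted p = 0.0949 and 0.186). S100A4, S100A6 and S100A10 had differences of 0.01 ± 0.28, 0.16 ± 0.26 and 0.01 ± 0.28. Their 95% intervals from the fit ran from -0.61 to 0.62, from -0.43 to 0.75 and from -0.63 to 0.65. Differences within those ranges are not excluded. These bounds are no limit of detection, since S100A11, at -0.72 ± 0.22, was not called either (limma, adjusted p = 0.105).

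**Figure D3:**
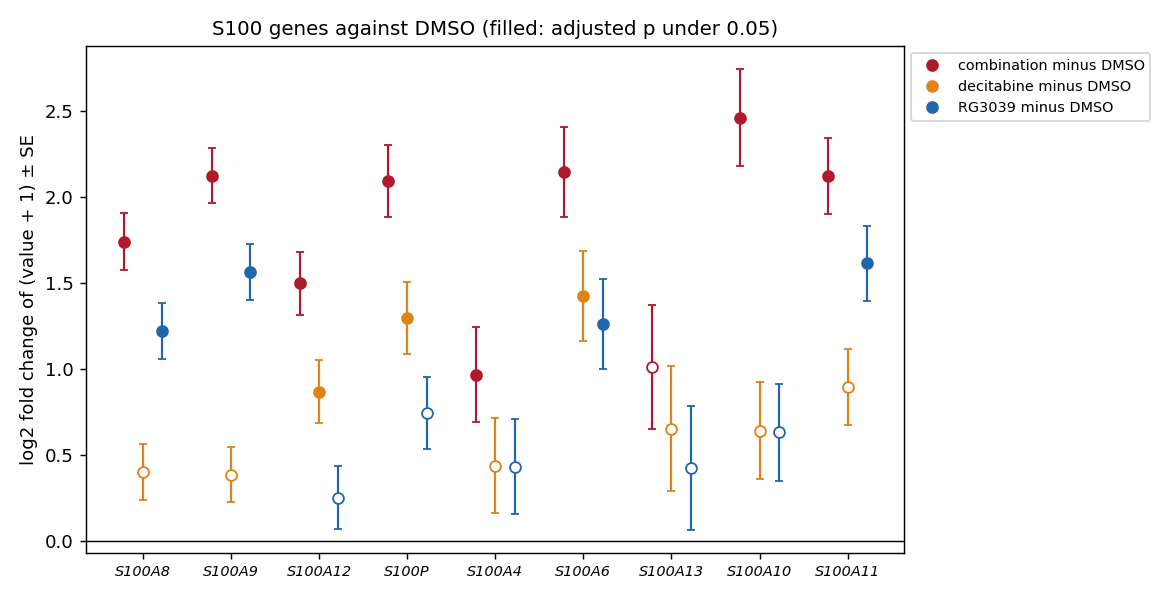
Log2 fold changes against DMSO (value + 1) with standard errors for the 9 tested S100 genes, for the combination, decitabine and RG3039; filled points passed an adjusted p of 0.05. S100A8, S100A9 and S100A11 were higher with RG3039 than with decitabine, S100A12 and S100P the reverse, though of these only S100A8 and S100A9 passed the test between the drugs.

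S100A6 (calcyclin), a cytosolic partner of the ubiquitin ligase adaptor CACYBP, was higher after every treatment. It had 2586 and 2680 in the combination, 1923 and 1321 with decitabine alone, 1813 and 1121 with RG3039 alone, and 680 and 520 in DMSO. The DMSO libraries were the lowest, and those of the single drugs overlapped each other. S100A6 rose with decitabine (1.42 ± 0.26, adjusted p = 0.0277), with RG3039 (1.26 ± 0.26, adjusted p = 0.0192) and in the combination (2.15 ± 0.26, adjusted p = 0.000551). The decitabine call was lost without combination replicate 1 (adjusted p = 0.0629) or 2 (0.0656), decitabine replicate 1 (0.174) or 2 (0.0766), or DMSO replicate 2 (0.152). The RG3039 call was lost without RG3039 replicate 1 (0.127) or DMSO replicate 2 (0.118).

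S100A11, which binds annexin A1, had 11278 and 16193 in the combination, 5434 and 6136 with decitabine alone, 8858 and 10211 with RG3039 alone, and 2565 and 3767 in DMSO. The groups did not overlap and stood in the order of S100A9. S100A11 rose with RG3039 (1.61 ± 0.22, adjusted p = 0.00260) and in the combination (2.12 ± 0.22, adjusted p = 0.000238), and both calls were kept in all 19 alternatives. With decitabine it was 0.89 ± 0.22 above DMSO (adjusted p = 0.0728).

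S100A10, known as p11, forms a tetramer with annexin A2 at the plasma membrane that binds plasminogen. It had 482 and 580 in the combination, 128 and 174 with decitabine alone, 136 and 162 with RG3039 alone, and 107 and 84.5 in DMSO. The combination libraries stood far above the rest, while those of the single drugs overlapped each other. S100A10 rose in the combination against DMSO (2.46 ± 0.28, adjusted p = 0.000402), a 5.53-fold ratio of means and the largest of the 9. With decitabine and RG3039 alone it differed from DMSO by 0.64 ± 0.28 and 0.63 ± 0.28 (adjusted p = 0.276 and 0.223). It was also higher in the combination than with decitabine (1.82 ± 0.28, adjusted p = 0.00668) and than with RG3039 (1.83 ± 0.28, adjusted p = 0.0147). The first call was lost without combination replicate 2 (adjusted p = 0.0717) or decitabine replicate 1 (0.0522). The second was lost without combination replicate 1 (0.116) or 2 (0.133), or RG3039 replicate 1 (0.132) or 2 (0.0514).

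S100A4, which binds non-muscle myosin, had 11295 and 10693 in the combination, 7003 and 8293 with decitabine alone, 7169 and 8028 with RG3039 alone, and 8087 and 3921 in DMSO. The DMSO libraries were far apart and spanned those of the single drugs except the higher decitabine library. S100A4 rose in the combination (0.96 ± 0.28, adjusted p = 0.0312). Without DMSO replicate 2 the change was 0.44 (adjusted p = 0.108), and the call was also lost without combination replicate 1 (0.142) or 2 (0.104). Without DMSO replicate 1, S100A4 was called higher with decitabine (0.96, adjusted p = 0.0263) and with RG3039 (0.95, adjusted p = 0.0152).

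S100A13, involved in the release of FGF1 and interleukin-1α, had 252 and 206 in the combination, 176 and 179 with decitabine alone, 182 and 126 with RG3039 alone, and 158 and 80.2 in DMSO. The combination libraries were the highest, the decitabine libraries lay above both DMSO libraries, and the RG3039 libraries overlapped both of these groups. The change in the combination was 1.01 ± 0.36 and did not pass (adjusted p = 0.0710). Of the left-out libraries, it passed only without DMSO replicate 1. The change was then 1.5, against DMSO replicate 2 alone at about 53 reads.

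S100Z, a little-studied member, ran the other way at a low level. It was listed at 0 and 2.24 in the combination, 15.0 and 8.97 with decitabine alone, 0 and 0 with RG3039 alone, and 15.3 and 7.01 in DMSO. The libraries with RG3039 lay below those without it. A count of 0 allows up to 3 reads, which would be 4.03 and 2.39 normalised reads in the RG3039 libraries. S100Z was below the level needed for testing. When genes with a mean of at least 1 were admitted, the adjusted p was 0.0964 for the combination and 0.0745 for RG3039 against DMSO.

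Against the single drugs, 4 of 9 members were higher in the combination than with decitabine (3.94% of all genes) and 3 than with RG3039 (1.49%). S100A8 (1.34 ± 0.16), S100A9 (1.74 ± 0.16) and S100A11 (1.23 ± 0.22) joined S100A10 in the first set, at adjusted p of 0.00218, 0.000926 and 0.0121. The S100A11 call was lost without combination replicate 2 (adjusted p = 0.0983) or decitabine replicate 1 (0.0821). S100A10, S100A12 and S100P made up the second set. The S100A12 call was lost without combination replicate 1 (adjusted p = 0.101) or 2 (0.111), or RG3039 replicate 1 (0.119), and the S100P call without the same libraries (0.135, 0.113 and 0.142). In all 9 tested members both combination libraries were above both libraries of each single drug, an arrangement found in 25.7% of genes against decitabine and 26.2% against RG3039.

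The design also allowed a test of whether the combination departed from the sum of the single responses on the log2 scale. No member was called (limma, 0 of 9, and 0 of 17534 genes, 0% of those tested). At an unadjusted p under 0.05 there were 1014 genes, 5.78% of those tested, and among the members S100A10 alone. For S100A10 the combination stood at 2.46 and the sum at 1.27, a departure of 1.19 ± 0.40 (unadjusted p = 0.0148, adjusted p = 0.854). Its 95% interval ran from 0.29 to 2.09. The departures were 0.12 ± 0.23 for S100A8, 0.18 ± 0.23 for S100A9, 0.38 ± 0.26 for S100A12 and 0.06 ± 0.29 for S100P. They were -0.54 ± 0.37 for S100A6 and -0.39 ± 0.31 for S100A11, where the combination was below the sum. The standard error of this term ran from 0.23 for S100A9 to 0.51 for S100A13, beside a median of 0.456 over all tested genes. With such errors, departures of the size seen in most members could not be detected.

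**Figure D4:**
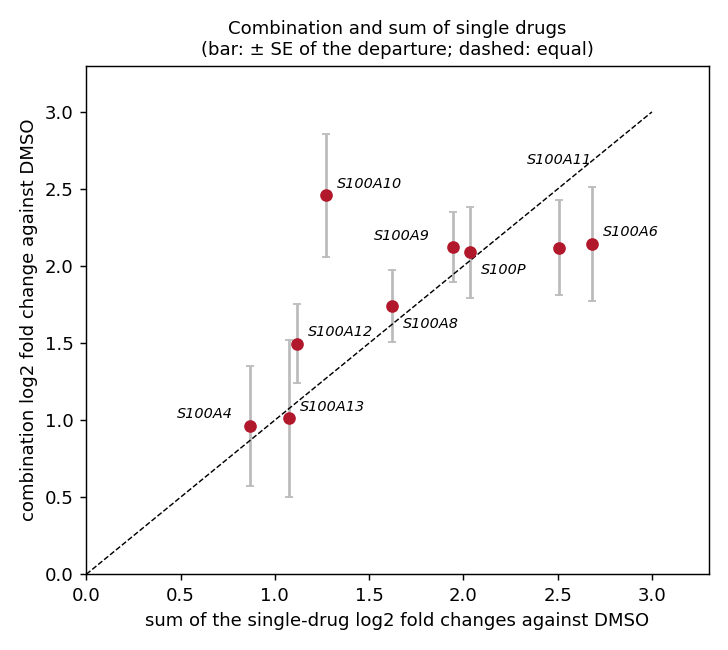
Log2 fold change of the combination against DMSO (vertical axis) and the sum of the single-drug log2 fold changes (horizontal axis) for the 9 tested S100 genes, with the standard error of the departure as bars and equality dashed. S100A10 lies farthest from the line, at 2.46 against a sum of 1.27; no departure passed an adjusted p of 0.05.

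Other S100 genes were at low levels. S100B had 69.8 and 53.9 in the combination, 28.3 and 62.2 with decitabine alone, 29.5 and 31.8 with RG3039 alone, and 58.9 and 45.2 in DMSO, and was called in none of the 7 comparisons. S100A5, next to S100A6 in the cluster, had 17.5 and 18.95 in the combination, 10.8 and 3.12 with decitabine alone, 0 and 7.16 with RG3039 alone, and 0 and 3.02 in DMSO. S100A2 had 13.3 and 13.3, 4.05 and 3.12, 10.7 and 4.77, and 3.78 and 1.51 in the combination, with decitabine, with RG3039 and in DMSO. S100A1, S100A3, S100A14 and S100A16 stayed below 10 in every library. Of these 6 none was tested. S100A7, S100A7A, S100A7L2 and S100G were listed at 0 throughout.

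Other genes of the chromosome 1 cluster were looked at beside the members. Between 151732915 and 153882039, which is 250 kb beyond the outermost S100A genes, 108 other genes are annotated; 79 were listed at 0 in all libraries and 14 were tested. Of these 14, in the combination against DMSO 1 rose and 1 fell, 3 had a log2 fold change above 0, and the median change was -0.31. With decitabine 7 had a change above 0 and the median was -0.01, and with RG3039 it was 4 with a median of -0.08. SLC27A3, a fatty acid transport family gene, rose (1.39 ± 0.22, adjusted p = 0.00195). MRPL9, a mitochondrial ribosomal protein gene, fell (-1.04 ± 0.21, adjusted p = 0.00686), a call lost without combination replicate 2 (adjusted p = 0.0596). By limma, 0 neighbours were called with decitabine or with RG3039 alone, and 3 and 1 had an unadjusted p under 0.05. Over all tested genes, 11.4% were called higher and 12.7% lower in the combination. The shares were 1.74% and 0.405% with decitabine, and 4.53% and 3.59% with RG3039. With 14 neighbours tested, their counts set them apart from all genes in neither direction.

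**Figure D5:**
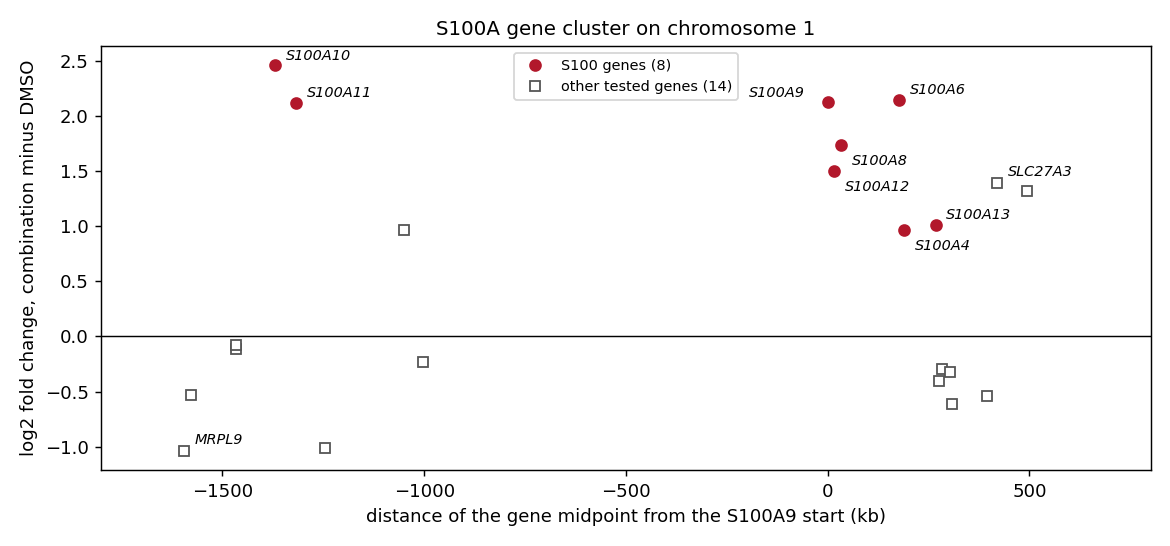
Log2 fold change in the combination against DMSO (vertical axis) by distance of the gene midpoint from the start of S100A9 in kb (horizontal axis) for the 8 S100 members on chromosome 1 (filled circles) and the 14 other tested genes of the cluster (open squares). All 8 S100 genes lie at 0.96 or higher, and 11 of the 14 others lie below 0.

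Among receptors and extracellular partners of S100 proteins, 13 of 18 were tested. In the combination 4 rose and 1 fell, with RG3039 3 rose and none fell, and with decitabine 0 were called by limma (4 at an unadjusted p under 0.05). Over all genes the shares called higher and lower were 11.4% and 12.7% in the combination, 4.53% and 3.59% with RG3039 and 1.74% and 0.405% with decitabine, and the counts of this and the next lists stand beside these. Their median changes were 0.28, 0.23 and 0.13. CD14, the co-receptor of TLR4, had 651 and 826 in the combination, 247 and 182 with decitabine alone, 457 and 469 with RG3039 alone, and 141 and 148 in DMSO. It rose in the combination (2.34 ± 0.24, adjusted p = 0.000218) and with RG3039 (1.67 ± 0.24, adjusted p = 0.00320). TLR4, a receptor of calprotectin, had 1054 and 1280 in the combination, 809 and 732 with decitabine alone, 1030 and 903 with RG3039 alone, and 596 and 629 in DMSO. It rose in the combination (0.92 ± 0.18, adjusted p = 0.00537), a call lost without combination replicate 2 (adjusted p = 0.0528). AGER, which encodes RAGE, stood between 44.7 and 91.8 in all libraries and was not called (0.76 ± 0.37 in the combination, adjusted p = 0.164). PLAUR, the urokinase receptor, rose with RG3039 (2.34 ± 0.31, adjusted p = 0.00233) and in the combination (2.23 ± 0.31, adjusted p = 0.00107). The gene that fell in the combination was PLAU, which encodes urokinase (-3.75 ± 1.03, adjusted p = 0.0270). It had 7.48 and 31.55 in the combination, 159 and 27.0 with decitabine alone, 276 and 38.15 with RG3039 alone, and 240 and 206 in DMSO. The wells of each single drug were far apart.

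Of 24 tested annexins and intracellular partners, 7 rose and 3 fell in the combination, 2 rose and 1 fell with RG3039, and 1 rose with decitabine. Their median changes were 0.30, 0.10 and -0.01. Of the 10 called in the combination, the count was 4 without combination replicate 1 and 8 or 9 without any other library. Of the 3 called with RG3039, the count was 1 without RG3039 replicate 1 and 0 without replicate 2. For decitabine it was 0 without either decitabine library and 2 without DMSO replicate 1. ANXA2, the partner of S100A10, had 981 and 833 in the combination, 690 and 695 with decitabine alone, 278 and 238 with RG3039 alone, and 300 and 193 in DMSO. The libraries with decitabine were all above those without it. ANXA2 rose in the combination (1.91 ± 0.25, adjusted p = 0.000717) and with decitabine (1.52 ± 0.25, adjusted p = 0.0157), against 0.10 ± 0.25 with RG3039 (adjusted p = 0.860). Its decitabine call was lost without decitabine replicate 1 (adjusted p = 0.102) or 2 (0.110), or DMSO replicate 2 (0.0733). S100A10 itself was called with neither drug alone. AHNAK, a large scaffold that binds the S100A10 and annexin A2 complex, rose in the combination (1.64 ± 0.18, adjusted p = 0.000357) and with RG3039 (0.97 ± 0.18, adjusted p = 0.0129). The RG3039 call of AHNAK was lost without RG3039 replicate 2 (adjusted p = 0.105) or DMSO replicate 1 (0.0566). ANXA1, the partner of S100A11, rose in the combination (1.95 ± 0.28, adjusted p = 0.00119) and with RG3039 (1.37 ± 0.28, adjusted p = 0.0175), and its RG3039 call was lost without RG3039 replicate 1 (0.0821) or 2 (0.107). ANXA7, a phospholipid-binding annexin, fell in the combination (-2.14 ± 0.28, adjusted p = 0.000845).

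Transcription factors linked to myeloid S100 genes went both ways. Of 13 tested, 3 rose and 3 fell in the combination, 4 rose and 1 fell with RG3039, and 1 rose with decitabine, with medians of 0.29, 0.29 and 0.12. The 5 called with RG3039 became 3 without RG3039 replicate 1, 2 without RG3039 replicate 2 and 3 without DMSO replicate 2. The 1 called with decitabine was lost without either decitabine or either DMSO library. EGR1, an early factor of monocyte differentiation, rose with RG3039 (2.17 ± 0.23, adjusted p = 0.000857) and in the combination (2.80 ± 0.23, adjusted p = 7.31e-05). CEBPE, the factor of late granulocyte maturation, rose with decitabine (1.03 ± 0.17, adjusted p = 0.0167), with RG3039 (0.86 ± 0.17, adjusted p = 0.0149) and in the combination (1.46 ± 0.17, adjusted p = 0.000400). The CEBPE call for decitabine was lost without decitabine replicate 1 (adjusted p = 0.0622) or 2 (0.121), or DMSO replicate 1 (0.0503) or 2 (0.0514), and that for RG3039 without RG3039 replicate 2 (0.123) or DMSO replicate 1 (0.0622). CEBPA, which starts the granulocyte programme in progenitors, fell with RG3039 (-0.93 ± 0.12, adjusted p = 0.00190) and in the combination (-1.28 ± 0.12, adjusted p = 0.000157). SPI1, which encodes PU.1, changed by -0.18 ± 0.20 in the combination (adjusted p = 0.554).

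Of 27 tested neutrophil and monocyte maturation markers, 17 rose and 1 fell in the combination, 9 rose and 1 fell with RG3039, and 4 rose with decitabine, with medians of 1.05, 0.30 and 0.60. The 18 called in the combination became 12 without combination replicate 1 and 11 without replicate 2. The 4 called with decitabine became 1 without either decitabine library or DMSO replicate 2, and 2 without either combination library. NCF1, which encodes a subunit of the phagocyte oxidase, rose in the combination by 2.58 ± 0.19 (adjusted p = 4.98e-05). NCF1 shares reads with near-identical pseudogenes, so its level is uncertain. FCGR3B, a neutrophil immunoglobulin receptor, rose by 4.11 ± 0.36 (adjusted p = 0.000116). FCGR1A went another way. It had 503 and 515 in the combination and 474 and 405 with RG3039 alone. With decitabine alone it had 1777 and 1982, and in DMSO 970 and 1301.

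The genes whose values followed the calgranulins most closely were ranked by Pearson's correlation of log2(value + 1) over the 8 libraries, a measure of likeness only, since the 8 libraries form 4 treatments. For S100A8 they were RAB27A, a GTPase of granule secretion (0.999), ALOX5AP, which encodes the 5-lipoxygenase activating protein (0.996), and CD58, an adhesion molecule (0.9955). For S100A9 they were ALOX5AP (0.998), SAT1, a polyamine acetyltransferase (0.998), and RAB27A (0.995). For S100A12 they were MAGED2 (0.989), EMILIN2, an extracellular matrix gene (0.987), and FAM177A1 (0.983). ALOX5AP averaged 15469 in the combination, 4465 with decitabine, 10291 with RG3039 and 3411 in DMSO.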

How the data were processed

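RNA of 8 HL-60 libraries (QuantSeq 3′ FWD kit, per the labels' protocols) is represented by 1 table of signal: normalised read counts per gene, as the authors deposited them. The submitters' processing notes name Salmon 1.2.1, STAR, featureCounts, DESeq2, limma and hg38, with no roles. Of low values, 74.4% to 80.8% per library were whole multiples (tolerance 0.02) of a fixed step, the worth of 1 read. Reads were thus recovered for part of the genes, and no count test was run. Totals divided by the step gave the depth.

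Genes with a mean of 10 or more (17534) entered 1 linear model on log2(value + 1) with a mean per treatment (limma 3.58.1 in R 4.3.3, eBayes with trend, two-sided, 4 residual degrees of freedom). In it 7 contrasts were tested, each adjusted by Benjamini-Hochberg over all genes, after tests on simulated data. Alternatives were other scalings (an unweighted trimmed mean of M values, TMM, and quantile), pseudocounts, filters and variance estimates, only the groups compared, a replicate block, and leaving out each library. Members and lists were chosen with earlier results of these data known. Named beyond the members were other S100 genes (with values for a mean of at least 1), called list genes with a mean of at least 20 (at most 4 per list and contrast, of which a part is given), called cluster neighbours and the 3 genes most like each calgranulin. AGER, PLAU, SPI1, ALOX5AP's means and the S100A9 to S100A8 quotient were picked after their values were seen. S100 genes below a mean of 1 are named only as low or at 0. Gene positions came from GENCODE 29 (58064 of 60240 identifiers found), and promoters from RefSeq. Tables were prepared with pandas 2.3.3 and numpy 2.4.6 in Python 3.11.15, and plots with matplotlib 3.10.9. The values of 1 listed gene are not reported here.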

Additional observations from a re-analysis of the deposited data

How the results depend on the processing

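Over 19 alternatives, no member reversed a called direction. In 1188 pairings of a member's comparison with an alternative, 1101 kept their side of the threshold, 59 lost and 28 gained a call. In the combination against DMSO 8 members were called, and 7 to 9 when each library was left out; with RG3039 the counts were 4 and 3 to 5. With decitabine 3 were called, 1 when low genes were kept, 0 when the variance was given no trend with the mean, 0 with only the groups compared and 0 to 3 over the left-out libraries. For the combination against decitabine 4 were called, 7 with the replicate number as a block and 2 to 5 over the left-out libraries. For the combination against RG3039 3 were called, 5 with quantile scaling, 5 with the block, 1 without the trend and 0 to 3 over the left-out libraries. Between the single drugs 2 were called, 4 with the block, 1 when low genes were kept, 0 without the trend and 1 to 2 over the left-out libraries. The cause was not tested. For the interaction 0 members were called in every setting. The replicate numbers are not stated to pair cultures. Differences between replicates 1 and 2 correlated between groups at -0.0767 to 0.161, above 0.1 in 3 of 6 pairs of groups, so the numbers were not treated as pairing the samples, and a shared source was not tested further. Over all genes, the count called moved with the 11 settings that keep every library and, in the second range, over the left-out libraries. It was 105 to 525 and 79 to 495 with decitabine (376 as reported), 481 to 1690 and 496 to 1263 with RG3039 (1424), and 2847 to 4619 and 2133 to 4075 in the combination (4221). It was 432 to 1678 and 305 to 1391 for the combination against decitabine (1286), 147 to 688 and 21 to 454 against RG3039 (399), 408 to 973 and 283 to 887 between the single drugs (806), and 0 to 0 and 0 to 2 for the interaction (0). Where 1 library remained in a group, its spread was taken from the remaining groups. With 2 wells per group, changes under about 2 times the median standard error of 0.322 are poorly resolved. Larger changes can also miss the adjusted threshold. S100A11 with decitabine, at 0.89 ± 0.22, was not called (limma, adjusted p = 0.0728).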
